A study of Mus musculus with 24 samples.

Results

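Il10 and 5 genes reported to control its transcription in T cells (Maf, Prdm1, Nfil3, Irf4 and Ahr) were followed array by array in wildtype (WT) and BAF180-deficient CD4+ T cells of the mouse. All probes carrying one of the 6 symbols were taken from the bead array table, which gave 7 probes for 6 of the 17879 genes on the array. Tests were run on probes detected on 1 array or more, with a detection p no higher than 0.02. That left 14246 of 25697 probes, among them 6 of the 7, and only the Ahr probe was not kept.

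BAF180, the product of Pbrm1, is a subunit of the PBAF chromatin remodelling complex. Naïve CD4+ T cells (CD4+CD62L+) came from spleens and lymph nodes of WT mice or of BAF180 conditional knockout mice aged 4 to 6 weeks, at a purity of 95% per the labels. They were profiled at rest, after 24 h on plates coated with anti-CD3 (1 µg/ml) and anti-CD28 (2 µg/ml), as resting Th2 cells, or as stimulated Th2 cells. Th2 cultures started on the same antibodies with IL-4 (10 ng/ml) and anti-IFN-gamma (10 µg/ml) and later grew with 100 U/ml of IL-2, and the stimulated ones then received PMA (50 ng/ml) and ionomycin (500 ng/ml) for 1.5 h. Each of the 8 groups had 3 arrays, lettered A, B and C. The deletion was driven by CD4-Cre, which acts in T cells from their development in the thymus onward, and the same deletion is carried by all 4 cell states of a BAF180-deficient mouse. The labels give the strain as Balb/c whereas the study's methods describe mice of mixed background.

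IL-10 is a secreted cytokine that restrains macrophages, dendritic cells and T cells, and Th2 cells are among its best known sources in the T cell lineage. Its gene is reported to be activated by c-MAF (a bZIP protein induced by IL-4 and by T cell receptor signals), by IRF4 (a lymphoid interferon regulatory factor), by BLIMP-1 (the product of Prdm1), by NFIL3 (also called E4BP4) and by the ligand-activated receptor AHR. These proteins are themselves induced to different degrees by antigen receptor and cytokine signals, so the regulators and Il10 need not be expressed at the same time.

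Irf4 and Nfil3 were the regulators with signal well above background on all 24 arrays. The 250 bases before their start sites are shown because the probes of both genes moved between cell states, and they make visible how unlike the base composition of these promoters is. The sequences are RefSeq's on GRCm38.p6, Irf4 at chr13:30748983-30749232 on the plus strand and Nfil3 at chr13:52981040-52981289 on the minus strand, each written 5′ to 3′ along its own gene. Capitals mark the GC box GGGCGG, on either strand, and the TATA box TATAAA.
Irf4: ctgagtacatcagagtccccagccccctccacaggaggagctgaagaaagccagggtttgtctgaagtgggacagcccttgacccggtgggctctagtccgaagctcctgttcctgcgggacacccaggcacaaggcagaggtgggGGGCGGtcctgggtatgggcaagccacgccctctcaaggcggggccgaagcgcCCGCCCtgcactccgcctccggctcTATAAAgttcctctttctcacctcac
Nfil3: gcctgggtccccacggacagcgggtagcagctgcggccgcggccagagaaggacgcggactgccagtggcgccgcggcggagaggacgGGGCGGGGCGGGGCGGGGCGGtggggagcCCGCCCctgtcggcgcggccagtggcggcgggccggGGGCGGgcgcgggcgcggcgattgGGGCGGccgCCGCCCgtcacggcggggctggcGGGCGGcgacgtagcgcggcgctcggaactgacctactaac
GC content was 63.6% for Irf4 and 81.6% for Nfil3, against a median of 52.4% over all such windows. The GC box occurred 2 times in the Irf4 window and 9 times in that of Nfil3, where neighbouring copies shared 1 base in a run. It was present in 32.7% of 32851 promoters. A TATA box lay 26 bases before the Irf4 start, and 12.4% of promoters held one. Neither window held the AP-1 letters TGANTCA (in 6.75% of promoters), the NFAT core GGAAA (55.6%), a paired IRF core (2.98%) or the NFIL3 core TTANNTAA (5.43%), all searched on both strands.

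Array quality bears on all values that follow. Between 8047 and 10689 probes were detected per array, and precision is limited by the 3 arrays of each group. At its brightest probe Pbrm1 itself fell by 1.86 on the log2 scale in resting Th2 cells and was called lower in all 4 states. Its dimmer kept probes were also lower in each state, by 0.47 and 0.76 in resting Th2 cells, but were not called in any. In resting naïve cells the genotypes overlapped for both of these dimmer probes. The CD4+ T cell markers were detected on all arrays. Among the Th2 markers, Gata3 (the master transcription factor of the lineage) was 1.62 and Il4 2.49 higher on the log2 scale in WT resting Th2 than in WT resting naïve cells, while Il1rl1, the IL-33 receptor, was not well above background in either resting Th2 group. The summed linear level of the naïve T cell markers did not separate these WT groups. It was 3019 to 3799 in resting Th2 and 2812 to 3669 in resting naïve cells. Arrays of letter C stood apart for several of the 6 genes, so values without them are given where they matter. The arrays are of bulk RNA, in which fewer cells of a type and less RNA per cell cannot be told apart.

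Il10 was abundant in stimulated Th2 cells of both genotypes and much lower in the other 3 states. All levels below are log2 normalised intensities of its single probe, which was detected on 24 of 24 arrays. The probe starts at base 960 of the transcript and is placed by the deposited annotation at chromosome 1, 132921203 to 132921252 on the plus strand (the genome build was not given in the sources used here). In resting naïve cells the level was 7.01, 7.62 and 5.60 on WT arrays A, B and C and 7.53, 7.58 and 5.45 on the BAF180-deficient ones. After 24 h on anti-CD3 and anti-CD28 it was 7.53, 7.06 and 6.84 in WT cells and 8.84, 8.15 and 6.63 in BAF180-deficient cells. The C array was the lowest of its group in both naïve states and both genotypes.

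Resting Th2 cells separated by genotype. Their Il10 level was 7.73, 7.79 and 6.84 in WT cells and 9.55, 9.29 and 8.60 in BAF180-deficient cells. Stimulated Th2 cells had 11.53, 10.95 and 11.77 in WT and 12.32, 12.12 and 12.28 in BAF180-deficient cells. In both Th2 states each BAF180-deficient array was above each WT array.

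**Figure D1:**
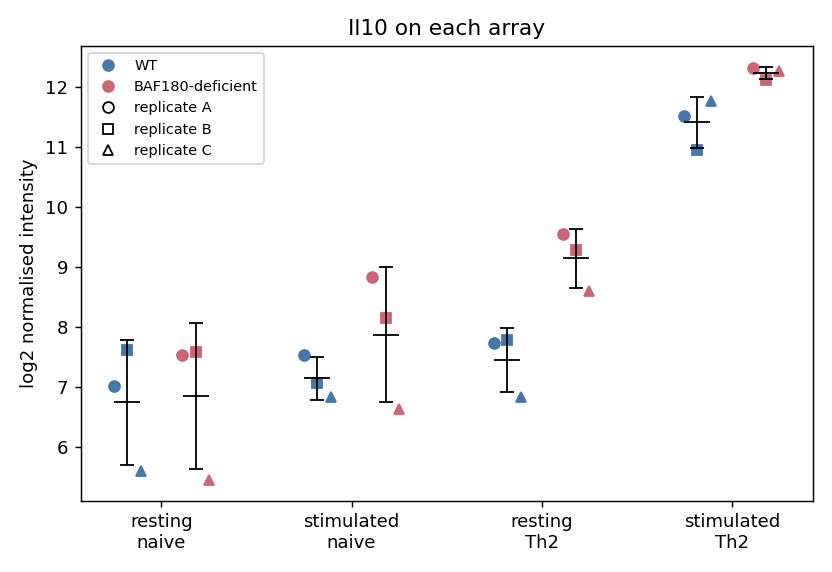
Log2 normalised intensity of the Il10 probe (vertical axis) on each of the 24 arrays, by cell state and genotype, with points for arrays A to C and bars for the mean and SD of 3 arrays. Stimulated Th2 arrays lie between 10.95 and 12.32, above all other arrays, and the resting Th2 arrays of BAF180-deficient cells (8.60 to 9.55) lie above those of WT cells (6.84 to 7.79).

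By group mean the order ran from WT resting naïve (6.74 ± 1.04, SD, n = 3) and BAF180-deficient resting naïve (6.85 ± 1.21) through WT stimulated naïve (7.15 ± 0.35), WT resting Th2 (7.45 ± 0.53) and BAF180-deficient stimulated naïve (7.88 ± 1.13) to BAF180-deficient resting Th2 (9.15 ± 0.49), WT stimulated Th2 (11.42 ± 0.42) and BAF180-deficient stimulated Th2 (12.24 ± 0.11). Neighbours overlapped up to BAF180-deficient resting Th2, and the last 3 groups did not overlap with one another.

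Stimulation of Th2 cells raised Il10 15.6-fold in WT cells, a log2 difference of 3.97 (SE 0.56, limma adjusted p = 1.55e-05). In BAF180-deficient Th2 cells it raised Il10 8.54-fold, by 3.09 (adjusted p = 0.000282). Of all probes tested, 13% rose in the WT comparison and 14.3% were lower, and in BAF180-deficient cells 12% rose and 13.8% were lower. The rise stood on each letter, at 3.80, 3.16 and 4.93 for WT A, B and C and at 2.77, 2.83 and 3.68 for BAF180-deficient cells. Of the 6 kept probes of these genes, 2 were called higher in each genotype, Il10 and Irf4.

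Anti-CD3 and anti-CD28 changed Il10 in naïve cells by 0.40 in WT (adjusted p = 0.605) and by 1.02 in BAF180-deficient cells (adjusted p = 0.154), and neither passed the test. In this comparison 23.6% of probes rose and 20% were lower in WT cells, and 22.3% and 19.3% in BAF180-deficient cells, and 1 of the 6 kept probes was called in each, that of Irf4. In the BAF180-deficient cells all 3 letters were higher after stimulation, by 1.31, 0.58 and 1.18, and without the C arrays the difference of 0.94 passed the test (adjusted p = 0.0157).

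Stimulation therefore moved Il10 by 3.56 more in WT Th2 than in WT naïve cells (SE 0.79, adjusted p = 0.00201), where 25% of probes differed in this way. The value for BAF180-deficient cells was 2.07 (adjusted p = 0.0583, with 26.4% of probes called). With the arrays of a letter within a genotype as a block the latter was called (adjusted p = 0.0151, 28.5% of probes called). The Th2 cells received PMA and ionomycin for 1.5 h and the naïve cells antibodies for 24 h, so cell type and stimulus cannot be told apart. This contrast was added after seeing the data.

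Resting Th2 cells carried more Il10 than resting naïve cells in the BAF180-deficient mice, by 2.29 on the log2 scale (4.90-fold, adjusted p = 0.00313, 18.8% of probes higher and 15.9% lower). In WT mice the same comparison gave 0.71 (adjusted p = 0.354, 18.4% higher and 16% lower). The letters gave 2.02, 1.71 and 3.15 in BAF180-deficient and 0.72, 0.17 and 1.24 in WT cells. The change of this difference between genotypes was 1.58 (SE 0.79, 95% interval -0.06 to 3.23, limma adjusted p = 1.00), and 0.00702% of all probes were called for it. A rise in one genotype that was called and one in the other that was not are thus not shown to differ.

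In resting Th2 cells Il10 was 1.69 higher on the log2 scale without BAF180 (3.23-fold, SE 0.56, 95% interval 0.53 to 2.86). The difference was 1.82, 1.50 and 1.77 on letters A, B and C. It had rank 3 by size among all 14246 probes, and rank 2 among the positive differences. The methods' 4 criteria were an absolute Z-ratio above 1.5, a false discovery rate below 0.3, p below 0.05 and a positive mean signal. Filled with limma's values, they did not call this Il10 difference, because the limma adjusted p was 0.988 while the unadjusted p was 0.00652. The paper, which used its own statistic, names Il10 as the gene most raised by BAF180 loss in resting as well as activated Th2 cells. It also reports, by RT-PCR, more IL-10 mRNA and primary transcript in resting and activated BAF180-deficient Th2 cells. Intracellular staining in the paper gave a larger share of IL-10 producing cells. Those assays are separate from the arrays and were not examined here. The 4 criteria called 0 of the 6 probes here, against 0.0842% of all probes. At an unadjusted p below 0.05 (limma) were 1 of the 6 and 489 of all 14246 probes. Groups that did not overlap, as those of Il10, were found for 10.1% of all probes. The exact permutation test of 3 against 3 arrays cannot go below 0.1, which is the value it gave.

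With the letter within a cell state taken as a block, which compares each BAF180-deficient array with the WT array of its letter, the same difference of 1.69 was called (limma adjusted p = 0.0204), where 0.955% of probes were called. It was also called without the C arrays (1.66, adjusted p = 0.0654, under the false discovery rate of the methods). With the letter as a block over all 24 arrays it was not called (adjusted p = 0.319).

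Markers of other cells that can make IL-10 are given beside this difference, and their part in it was not tested. The summed linear level of 8 of 9 regulatory T cell markers was 2262 to 2709 in WT and 2905 to 3696 in BAF180-deficient resting Th2 cells, without overlap, with 7 of the 8 higher and a median difference of 0.21. Foxp3, the defining factor of regulatory T cells, was 1.00 higher (SE 0.27, adjusted p = 0.465) and Il2ra 0.52 higher (adjusted p = 1.00), and all 8 markers were detected on the 3 arrays of both groups. None of them was called here, whereas the paper, by its own statistic, lists Foxp3 and Il2ra among genes apparently repressed by BAF180 in Th2 cells. The memory T cell markers summed to 4442 to 5661 in WT and 4772 to 5261 in BAF180-deficient cells. The 9 kept of 10 myeloid markers summed to 186 to 310.0 in WT and 195 to 245 in BAF180-deficient cells. Plasma cell markers (3 of 5 kept) summed to 2704 to 4087 and to 2990 to 7985, and B cell markers to 122 to 430.2 and to 164 to 569, with array C the highest for both lists in both genotypes. Naïve T cell markers were lower in the sum, at 3019 to 3799 in WT and 2038 to 3032 in BAF180-deficient cells, and Tcf7 differed by -0.76 (adjusted p = 1.00). The Th2 marker Il4 differed by 0.62 (SE 0.49) and Gata3 by 0.16 (SE 0.18), neither past the test.

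In stimulated Th2 cells Il10 was 0.82 higher without BAF180 (1.77-fold, 95% interval -0.34 to 1.99, adjusted p = 1.00). The letters gave 0.79, 1.16 and 0.51. Among all 14246 probes the difference had rank 62 by size and rank 19 among the positive ones, called or not. By its own statistic the paper places Il10 first in this state too. The 4 criteria called 0 of the 6 probes, with 0.0913% of all probes called. None of the 6 was at an unadjusted p below 0.05, as were 397 of all 14246 probes. Il10, Nfil3 and 1 Prdm1 probe had groups that did not overlap, as had 7.31% of all probes. That Prdm1 probe was detected on no stimulated Th2 array. Its means of 4.25 in WT and 4.33 in BAF180-deficient cells lay at background, so its separation is not read as a difference. The summed regulatory T cell markers were 2177 to 2643 in WT and 2403 to 3024 in BAF180-deficient cells, and overlapped. How far stimulation moved Il10 did not differ detectably between genotypes in Th2 cells (-0.87, 95% interval -2.52 to 0.77), and 0% of probes were called in that test. In naïve cells the corresponding value was 0.62 (95% interval -1.03 to 2.27, 0.00702% of probes called).

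In naïve cells the Il10 values of the genotypes overlapped. The difference was 0.11 at rest (95% interval -1.05 to 1.28, letters 0.52, -0.04 and -0.15) and 0.73 after stimulation (95% interval -0.43 to 1.89, letters 1.31, 1.09 and -0.21). None of the 6 probes was called in either naïve state, where 0.681% and 0.112% of all probes were called. None was at an unadjusted p below 0.05, as were 973 of 14246 probes at rest and 321 after stimulation. Nor did any of the 6 have groups without overlap, which 7.99% of all probes had at rest and 6.46% after stimulation. Regulatory T cell markers summed to 2001 to 2081 in WT and 2149 to 2759 in BAF180-deficient cells at rest, again without overlap, and to 1731 to 2014 and 1529 to 2514 after stimulation. Myeloid markers summed to 1570.0 to 5981 in WT and 2355 to 3354 in BAF180-deficient resting naïve cells, and 9 of 9 were called lower in resting Th2 and in stimulated naïve cells. All 9 were detected on every resting naïve array. In WT resting Th2 cells 7 of them were detected on no array, and 6 in BAF180-deficient resting Th2 and in either stimulated naïve group. Such genes passed the detection filter mainly through the resting naïve arrays, so the count of 9 was in part fixed by that filter. Against resting naïve cells, the share of all probes called lower was 16% for WT and 15.9% for BAF180-deficient resting Th2 cells. For stimulated naïve cells these shares were 20% and 19.3%. The WT resting naïve array C had the highest myeloid sum and the lowest Il10 level of its group.

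Irf4 rose with stimulation in both cell types, and its genotypes overlapped in each of the 4 states. Its probe starts at base 4427 of the transcript (chromosome 13, 30858540 to 30858589 on the plus strand in the deposited annotation). In resting naïve cells the level was 7.58, 7.25 and 5.68 on WT arrays A, B and C and 7.39, 7.44 and 6.18 on BAF180-deficient arrays. In stimulated naïve cells it was 9.83, 10.24 and 9.80 in WT and 9.19, 10.21 and 9.84 in BAF180-deficient cells. Both genotypes moved to the same range, and the C arrays, which were lowest at rest, joined the others after stimulation.

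The resting Th2 levels of Irf4 were 8.42, 7.70 and 8.21 in WT and 8.29, 8.15 and 9.10 in BAF180-deficient cells. In stimulated Th2 cells they were 10.29, 10.46 and 10.08 in WT and 10.23, 10.41 and 10.13 in BAF180-deficient cells. By group mean the 2 resting naïve groups were lowest (from 6.84 in WT), then the resting Th2 groups (8.11 and 8.51), the stimulated naïve groups (9.75 and 9.96) and the stimulated Th2 groups (10.26 and 10.28). The stimulated naïve and stimulated Th2 groups overlapped.

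**Figure D2:**
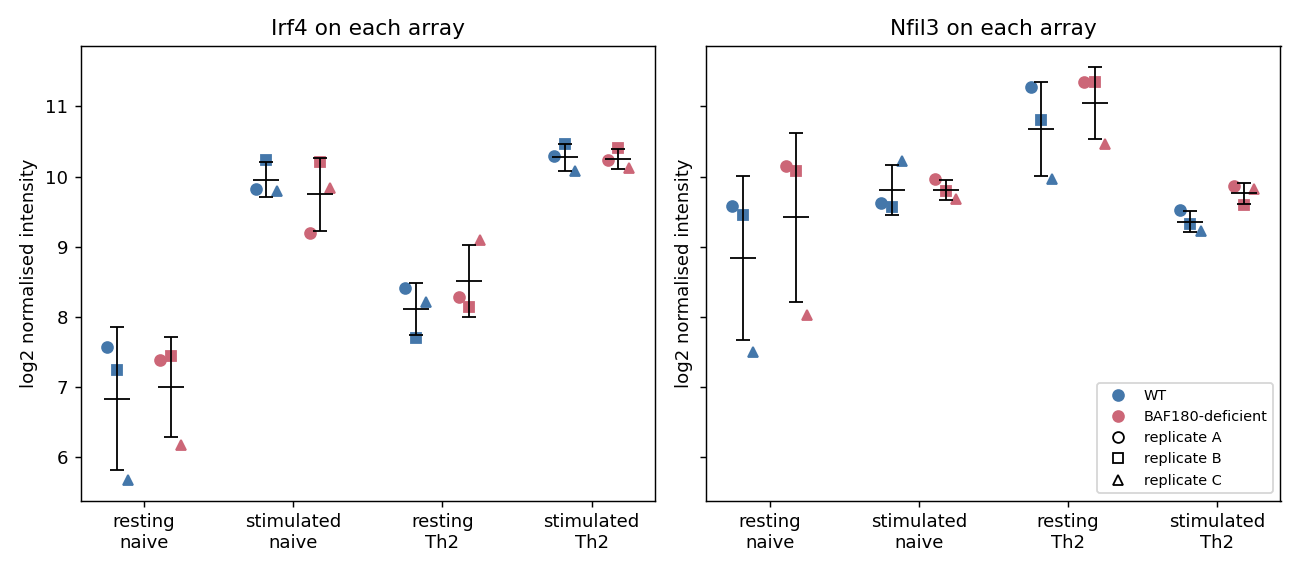
Log2 normalised intensity of the Irf4 and Nfil3 probes on each array by cell state and genotype, with points for arrays A to C and bars for the mean and SD of 3 arrays. Irf4 is at least 9.19 on all stimulated arrays and at most 9.10 on all resting ones, whereas Nfil3 is highest in resting Th2 cells (9.96 to 11.35).

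Stimulation raised Irf4 by 3.12 in WT naïve cells (8.71-fold, adjusted p = 2.21e-06) and by 2.74 in BAF180-deficient naïve cells (adjusted p = 1.16e-05). In Th2 cells the rise was 2.17 in WT (4.49-fold, adjusted p = 0.000289) and 1.74 in BAF180-deficient cells (adjusted p = 0.00247). Th2 and naïve responses were not shown to differ, at -0.96 in WT (adjusted p = 0.244) and with the same sign in BAF180-deficient cells (adjusted p = 0.207). Resting Th2 cells had 1.27 more Irf4 than resting naïve cells in WT (adjusted p = 0.0175) and 1.51 more in BAF180-deficient mice (adjusted p = 0.00577). Without the C arrays these differences were 0.64 and 0.81 and no longer passed the test (adjusted p = 0.129 and 0.0652).

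Between genotypes Irf4 differed by 0.41 in resting Th2 cells (95% interval -0.43 to 1.24), by -0.02 in stimulated Th2 cells (-0.85 to 0.81), by 0.17 in resting naïve cells (-0.66 to 1.00) and by -0.21 in stimulated naïve cells (-1.04 to 0.62). In resting Th2 cells the letters gave -0.13, 0.46 and 0.89, so the sign was not shared.

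Nfil3 ran the other way from Il10 on stimulation of Th2 cells. Its level in resting naïve cells was 9.58, 9.45 and 7.50 on WT arrays A, B and C and 10.15, 10.08 and 8.03 on BAF180-deficient arrays. After stimulation the naïve cells had 9.63, 9.57 and 10.22 in WT and 9.96, 9.80 and 9.68 in BAF180-deficient mice. The 2 resting C arrays were again the lowest of their groups, while after stimulation the C arrays lay near A and B.

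Resting Th2 cells had Nfil3 levels of 11.28, 10.81 and 9.96 in WT and 11.35, 11.35 and 10.46 in BAF180-deficient cells, the highest group means of the gene (10.68 and 11.06). Stimulated Th2 cells had 9.52, 9.33 and 9.22 in WT and 9.86, 9.59 and 9.83 in BAF180-deficient cells. The other 6 group means lay between 8.84 and 9.82 and their neighbours overlapped.

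Resting Th2 cells had 1.84 more Nfil3 than resting naïve cells in WT mice (3.58-fold, adjusted p = 0.00715) and 1.64 more in BAF180-deficient mice (3.11-fold, adjusted p = 0.0150), with every letter higher. Leaving out the WT resting naïve C array gave 1.17 (adjusted p = 0.0552), and leaving out its BAF180-deficient counterpart gave 0.94 (adjusted p = 0.120). On stimulation Nfil3 of Th2 cells differed by -1.32 in WT (95% interval -2.37 to -0.28, adjusted p = 0.0553) and by -1.30 in BAF180-deficient cells (95% interval -2.34 to -0.25, adjusted p = 0.0635), just short of the threshold of 0.05, with every letter lower in both genotypes. With the letter within a genotype as a block both were called (adjusted p = 0.0280 and 0.0333), where 29% and 27.3% of probes were called.

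In naïve cells stimulation gave Nfil3 differences of 0.96 in WT (adjusted p = 0.129) and 0.39 in BAF180-deficient cells (adjusted p = 0.571), and in WT the letter C supplied 2.72 against 0.06 and 0.11 on A and B. The Th2 response minus the naïve one was -2.29 in WT cells (SE 0.71, adjusted p = 0.0212), and -1.69 in BAF180-deficient cells (adjusted p = 0.0845). Irf4 thus rose in each of the 4 stimulations and Il10 in the 2 of Th2 cells, while Nfil3 was called higher in none.

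The Nfil3 difference between genotypes was 0.38 for resting and 0.40 for stimulated Th2 cells, and it was 0.58 for naïve cells at rest and 0.01 for those given antibodies, and none of these was called. The paper, which used its own statistic on these arrays, lists Nfil3 among genes apparently repressed by BAF180 in Th2 cells. In stimulated Th2 cells the groups did not overlap (letters 0.34, 0.26 and 0.61), as was so for 7.31% of all probes. In resting naïve cells the letters gave 0.57, 0.63 and 0.53, and with the letter within a cell state as a block the difference of 0.58 met the 4 criteria (limma adjusted p = 0.199), as did 4.16% of all probes.

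**Figure D3:**
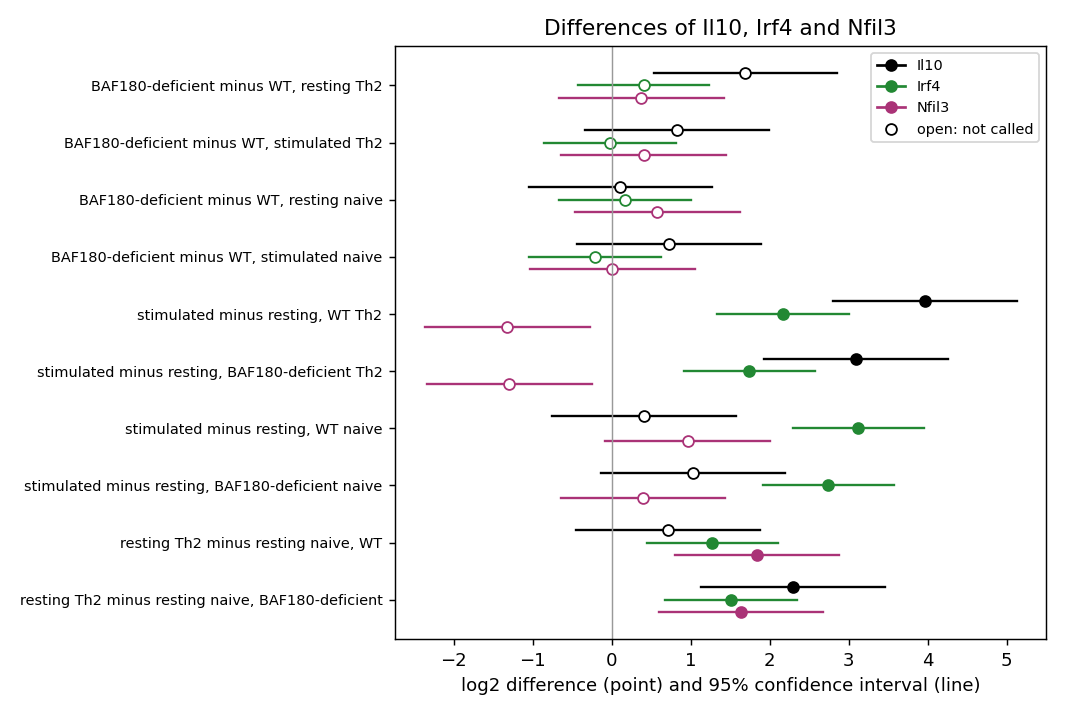
Log2 differences of Il10, Irf4 and Nfil3 with their 95% intervals from limma for the genotype, stimulation and resting Th2 against resting naïve comparisons. Il10 in stimulated against resting Th2 cells (3.97 in WT) is farthest to the right, and the interval for Il10 between genotypes in resting Th2 cells (0.53 to 2.86) is the one genotype interval that leaves out 0.

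Maf, Prdm1 and Ahr gave little signal on this array. The lowest level at which a probe was detected ranged from 4.51 to 5.02 between arrays. Maf, which encodes c-MAF, was detected on 3 of 24 arrays, all of letter C, at 5.02 in BAF180-deficient resting Th2, 4.74 in WT stimulated Th2 and 4.81 in BAF180-deficient stimulated Th2 cells. Its group means lay between 4.22 and 4.68 and were thus not well above background in any group as a whole. The Maf probe lies at chromosome 8, 118229709 to 118229758 on the minus strand in the deposited annotation.

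Both Prdm1 probes were detected on 1 array each, with group means between 4.25 and 4.56. The Ahr probe was detected on 0 of 24 arrays. Its unnormalised intensity averaged 34.3 to 37.5 by group, and the log2 means spanned 4.14 to 4.19. No fold is given for these genes, since both sides of each comparison were at background. Of the 45 differences tested for the Maf probe and both Prdm1 probes, 0 were called.

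**Figure D4:**
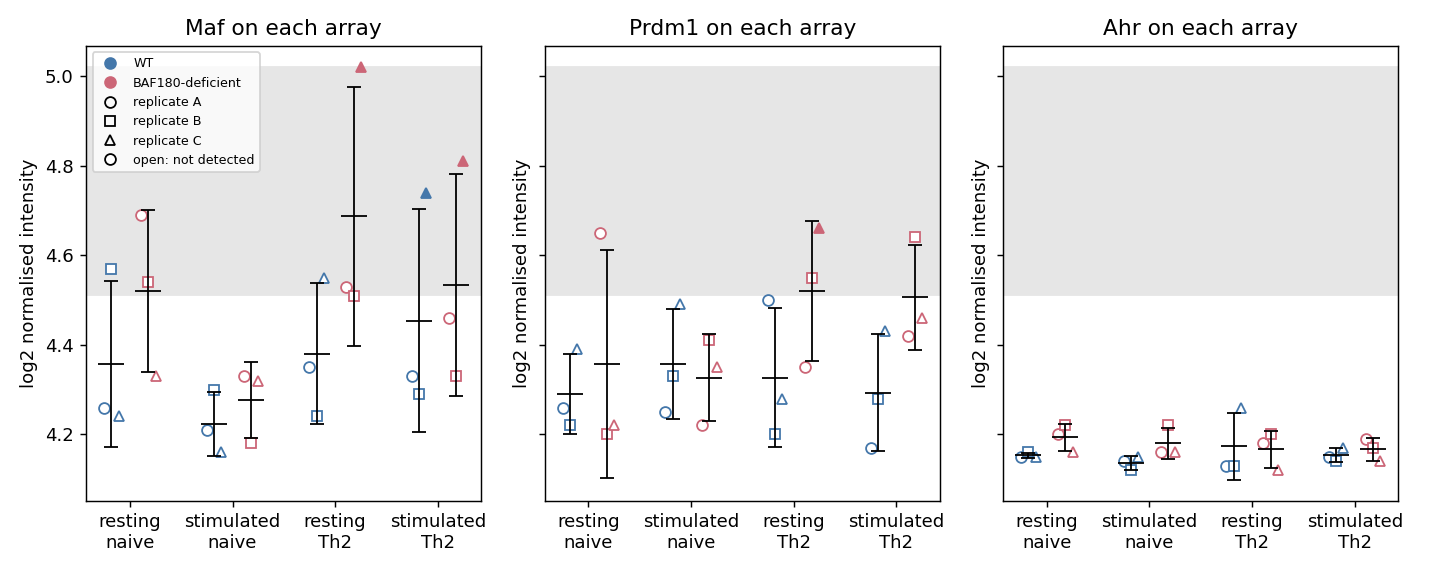
Log2 normalised intensity of Maf, Prdm1 (its brighter probe) and Ahr on each array by cell state and genotype, with filled points where the probe was detected, bars for the mean and SD of 3 arrays, and a grey band from 4.51 to 5.02 for the lowest detected signal of the arrays. All Ahr points lie under the band, and the 3 filled Maf points are of letter C.

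Il10 was set against Irf4 and Nfil3 across the arrays of a state, and no relation pooled over states is given. In both Th2 states the Il10 values of the genotypes did not overlap, so r there includes the genotype difference. In resting Th2 cells r was 0.706 for Nfil3 (rho = 0.754, exact permutation p of r = 0.119) and 0.192 for Irf4 (rho = 0.0286, exact p of r = 0.765). In stimulated Th2 cells r was 0.753 for Nfil3 (rho = 0.829, exact p of r = 0.0875) and -0.510 for Irf4 (rho = -0.486, exact p of r = 0.303). In the 6 resting naïve arrays Il10 went with Nfil3 (Pearson r = 0.945, exact permutation p = 0.0333; Spearman rho = 0.543, exact p = 0.297) and with Irf4 (r = 0.913, exact p = 0.0653; rho = 0.429, exact p = 0.419). Both rest on the 2 C arrays, without which r was 0.351 for Nfil3 and -0.848 for Irf4. In stimulated naïve cells r was 0.142 for Nfil3 (exact p = 0.765) and -0.487 for Irf4 (exact p = 0.342). Over the 20 relations computed (5 regulators in 4 states) the lowest Benjamini-Hochberg adjusted p was 0.4375.

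**Figure D5:**
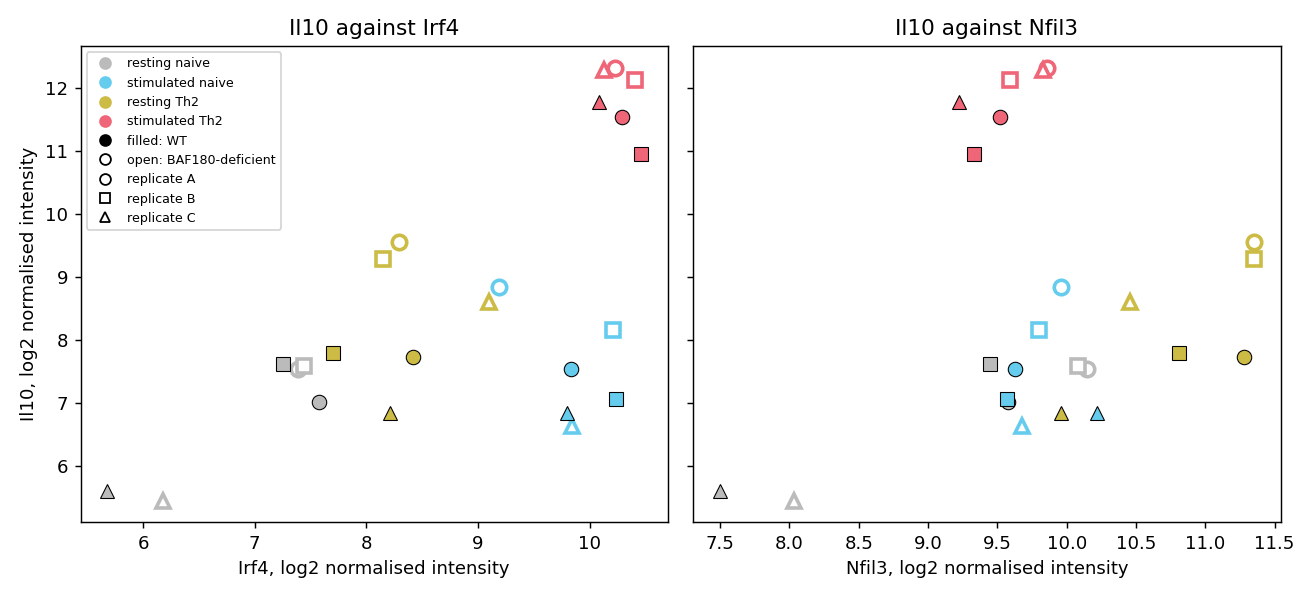
Log2 normalised intensity of Il10 (vertical axis) against that of Irf4 and of Nfil3 (horizontal axes) on the 24 arrays, coloured by state, with the genotype given by the marker. Stimulated Th2 arrays are high for Il10 and Irf4 and between 9.22 and 9.86 for Nfil3, and the 2 resting naïve C arrays lie at the lower left of both panels.

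Over the 8 group means the level of Il10 went with that of Irf4 at r = 0.682, place 1190 of 6215 probes that spanned at least 1 log2 unit, and with Nfil3 at r = 0.0658, place 3064. Deviations from the group means over the 24 arrays gave the other order, r = 0.779 for Nfil3 (place 27) and 0.351 for Irf4 (place 945), and share the C arrays. The genes most like Il10 over the 8 group means were Mul1 (r = 0.988), Eml1 (0.988), Anp32a (0.985), Selenos (0.984), Srp14 (0.982), Twist1 (0.980), Eno2 (0.979) and Pou2af1 (0.979). Mul1 is a mitochondrial ubiquitin ligase, Srp14 is a subunit of the signal recognition particle and Twist1 is a bHLH repressor known in T helper cells. These correlations describe 8 points that share arrays and carry no test.

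Among genes of the IL-10 family and its genomic neighbourhood (6 of 9 kept), Il24 came closest to Il10. Il24 is a cytokine of the same family, encoded near Il10. It rose by 4.63 on stimulation of WT Th2 cells (adjusted p = 3.41e-07) and by 3.16 in BAF180-deficient Th2 cells, to means of 12.97 and 12.89. In resting naïve cells of both genotypes Il24 was not well above background, and resting Th2 cells had at least 11.2-fold more in WT and at least 30.3-fold more in BAF180-deficient mice. Between genotypes Il24 was 9.73 against 8.34 in resting Th2 cells, a difference of 1.39 (SE 0.48, adjusted p = 1.00, unadjusted p = 0.00908) without overlap. In this comparison 10.1% of all probes had no overlap, and 489 of 14246 were at an unadjusted p below 0.05 (limma). In stimulated Th2 cells the difference was -0.08. Mapkapk2, a kinase downstream of p38, rose by 2.37 in WT and 2.44 in BAF180-deficient Th2 cells and Dyrk3 fell by 0.72 in WT. So 2 rose and 1 fell of 6 in WT and 2 rose in BAF180-deficient Th2 cells, with a list median of -0.31 in WT against -0.01 for all kept genes. All probes gave 13% higher and 14.3% lower in WT and 12% and 13.8% in BAF180-deficient cells.

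Of 24 kept genes (26 listed) reported as other activators of Il10 in T cells, 7 rose and 5 fell on stimulation of WT Th2 cells, with a median of 0.34 against -0.01 over all kept genes, where 13% of all probes rose and 14.3% were lower. Egr2, an activation-induced zinc finger factor, rose by 5.21, the cytokine Il21 by 3.61 and Stat5a by 3.01. Stat4, the factor downstream of IL-12, fell by 2.28, the IL-27 receptor gene Il27ra fell by 0.98 and Mapk3 was at least 1.32-fold lower. In BAF180-deficient Th2 cells 6 rose and 4 fell. In naïve cells 6 rose and 10 fell in WT, with 23.6% of all probes higher and 20% lower, and 5 rose and 8 fell in BAF180-deficient mice, with 22.3% and 19.3%, so the genes that rose were near the background share.

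Between resting Th2 and resting naïve cells 5 activators were higher and 5 lower in WT (median -0.33 against 0.00 for all kept genes), and 5 were higher and 7 lower in BAF180-deficient mice. Of all probes 18.4% were higher and 16% lower in WT, and 18.8% and 15.9% in BAF180-deficient mice. The counts of 5 of 24 are not far from these shares, while 7 of 24 lower in BAF180-deficient mice is above the share of 15.9%. Rbpj, the nuclear partner of Notch, was at least 2.31-fold higher in WT, Gata3 was 1.62 and Notch1 1.56 higher on the log2 scale. Of the AP-1 genes Fos fell by 5.22, Junb fell by 3.84 and Jun fell by 3.25.

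The reported repressors of Il10 (5 of 6 kept) were lower in resting Th2 than in resting naïve cells for 4 of 5 genes in each genotype, with a median of -1.67 in WT. Of all probes 16% were lower in WT and 15.9% in BAF180-deficient mice. In WT, Zfp36 (an RNA-binding protein that destabilises cytokine transcripts) fell by 3.74, Bcl6 (the follicular helper repressor) fell by 3.52, Bach2 fell by 1.67 and Ets1 fell by 1.09. Anti-CD3 and anti-CD28 lowered 3 of 5 in naïve cells of each genotype (20% and 19.3% of all probes were lower), and in WT Zfp36 fell by 3.81, Ets1 fell by 2.63 and Bcl6 fell by 2.26. Stimulation of WT Th2 cells raised Bcl6 by 1.44 and Ets1 fell by 1.49.

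Genes of the IL-10 receptor and its signalling (8 of 8 kept) fell where they changed in WT Th2 cells. On stimulation 0 rose and 3 fell, as Il10ra (the ligand-binding receptor chain) fell by 1.21, Socs3 fell by 1.09 and Il10rb fell by 0.76, and in BAF180-deficient Th2 cells 0 rose and 4 fell. WT resting Th2 cells against resting naïve cells had 3 of 8 lower, where Il10ra fell by 1.71, Stat3 (the main transducer of IL-10) fell by 1.08 and Socs3 fell by 1.02, while in BAF180-deficient mice 2 were higher and 2 lower. Medians were -0.30 and -0.38 in the WT comparisons. On stimulation 13% of all probes rose and 14.3% were lower in WT Th2 cells, and 12% and 13.8% in BAF180-deficient ones. In resting Th2 against resting naïve cells 18.4% were higher and 16% lower in WT, and 18.8% and 15.9% in BAF180-deficient mice.

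Relatives of the regulators are given by family. On stimulation 13% of all probes rose and 14.3% were lower in WT Th2 cells, and 12% and 13.8% in BAF180-deficient Th2 cells. In WT resting Th2 against resting naïve cells 18.4% were higher and 16% lower. Of 8 other IRF genes, Irf8 rose by 2.86 and Irf1 by 0.61 and Irf2 fell by 0.85 on stimulation of WT Th2 cells, and between WT resting naïve and resting Th2 cells Irf8 fell by 1.55, Irf1 fell by 1.25 and Irf5 fell by 1.20. The clock-related factor Dbp was the 1 of 3 PAR bZIP relatives of Nfil3 to change, and it fell by 1.78 in WT and fell by 2.23 in BAF180-deficient Th2 cells. None of the 4 kept of 6 other MAF genes changed in Th2 cells, and among AHR partners and target genes (6 of 10 kept) 1 rose and 1 fell in stimulated WT Th2 cells, where Hsp90ab1, a chaperone that holds AHR in the cytoplasm, rose by 0.69. The other T helper cytokines (7 of 9 kept) rose in 7 of 7 cases in each of the 4 stimulations. All 7 were detected on every stimulated array. Csf2, Il13, Il3 and Il5 were detected on no resting naïve array, and Il3 and Il17a on no resting Th2 array. Such genes passed the detection filter through groups where they are higher, so the count of 7 was in part fixed by that filter. Of all probes 13% rose in WT and 12% in BAF180-deficient Th2 cells, and 23.6% and 22.3% in naïve cells. The median of these cytokines was 4.59 in WT Th2 cells, where Il3 was at least 396-fold higher and Csf2 rose by 6.50 and Ifng by 6.05. No gene of these pathway lists was called between genotypes in any of the 4 states, where 0.0842% to 0.681% of all probes were called. Among the marker lists of cell types 1 gene was, the memory T cell marker S100a6, which was 2.13-fold higher in BAF180-deficient resting naïve cells (limma adjusted p = 0.263).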

How the data were processed

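RNA of naïve and Th2 CD4+ T cells was hybridised to Illumina MouseRef-8 bead arrays by the authors, who deposited 1 table of 25697 probes with a non-normalised intensity and a detection p-value for each of 24 arrays (GenomeStudio 1.6.0 per the submitters' processing notes). The deposited detection p-values say how often negative control beads are as bright as a probe. No count lies behind these values, so precision rests on 3 arrays per group. The median deposited intensity was 40.6 to 48.9 per array.

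Here the intensities were background corrected from the detection p-values, offset by 16, quantile normalised and put on the log2 scale (neqc in limma 3.58.1, R 4.3.3). Such values compress differences of dim probes. Probes whose detection p was no higher than 0.02 on 1 array or more remained (14246 probes, 10423 genes), 8 group means were fitted to all 24 arrays (16 residual degrees of freedom), and p-values were moderated (eBayes) and adjusted by Benjamini-Hochberg over all kept probes. Genotype differences were called by the study's 4 criteria with limma's values in place of the study's Z-test, and other differences at an adjusted p below 0.05. A gene with several probes in a list was represented by its brightest probe. The code recovered known changes in simulated data.

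Samples were grouped by their labels. Probe names were updated through Entrez numbers (16938 probes), RefSeq accessions (4666), symbols (2295) or synonyms (1423) of a RefSeq gene table, and the other 375 kept the file's symbol. Genes were named because they carry 1 of the 6 symbols, because they were called members of a pathway list with the largest changes, or because their 8 group means went most closely with Il10. The 6 genes and the lists were chosen with earlier results of these data known. A legend of the study describes 3 pairs of WT and BAF180-deficient mice, and arrays of one letter deviated together (pooled correlation of the deviations of the genotypes 0.301 for A, 0.136 for B and 0.516 for C, with 2 of 12 single-state values at or below 0.1), so the letters were read as pairs. The 3 arrays of a group thus stand for 3 mice, although the labels do not tie a letter to a mouse. Within a group arrays correlated at 0.949 to 0.989. Alternatives were other normalisations, filters, blocks and left-out arrays. The contrasts of the stimulation response between cell types, and the fits without all arrays of a letter, were added after seeing the data. The result of 1 gene of a list is not reported here.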

Additional observations from a re-analysis of the deposited data

Results flagged for a closer look

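The response of Il10 to stimulation differed between Th2 and naïve WT cells by 3.56 on the log2 scale (SE 0.79, limma adjusted p = 0.00201), a tested difference between the effects in 2 cell types. The rise was 3.80, 3.16 and 4.93 on letters A, B and C in Th2 cells and 0.52, -0.55 and 1.25 in naïve cells. Of the fits that left out an array or a letter, the one without letter B lost the call (3.48, adjusted p = 0.0535). In BAF180-deficient cells the difference was 2.07 (adjusted p = 0.0583), and whether it differs from that of WT cells was not tested.

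Nfil3 differed in the opposite direction, by -2.29 in WT cells (SE 0.71, adjusted p = 0.0212) and by -1.69 in BAF180-deficient cells (adjusted p = 0.0845). Its change was -1.76, -1.48 and -0.73 in WT Th2 cells and 0.06, 0.11 and 2.72 in WT naïve cells, the last on letter C. In WT the call was lost in 5 of 15 fits that left out an array or a letter (values -1.62 to -2.64, adjusted p up to 0.116) and without the detection filter (adjusted p = 0.0571). For both genes the stimulus and its duration changed with the cell type, and these cannot be told apart.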

How the results depend on the processing

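The rise of Il10 and Irf4 in stimulated Th2 cells of WT mice, of Il10 in stimulated BAF180-deficient Th2 cells and of Irf4 in stimulated naïve cells of both genotypes kept direction and call under every alternative, and so did the higher Il10 of BAF180-deficient resting Th2 than resting naïve cells. The alternatives were a Z-score per array, offset 50, no background correction, detection on at least 3 arrays or no filter, only the arrays compared, letter blocks and left-out arrays (neqc within a state applies to genotype differences only). The positive Il10 difference between genotypes in resting Th2 cells kept its direction under all of them. It was called with the letter within a cell state as replicate block (1.69, adjusted p = 0.0204), as was Nfil3 in resting naïve cells (0.58, adjusted p = 0.199). Besides those given below, the pairing changed no call. Irf4 in stimulated Th2 cells reversed to 0.0639 between genotypes under the Z-score. No cause of these changes was tested.

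The Th2 minus naïve stimulation difference of Il10 in BAF180-deficient cells passed the threshold under the Z-score (2.16), detection on at least 3 arrays (2.07), no background correction (2.18), offset 50 (2.20) and the letter blocks over 24 arrays or within genotype (2.07). That of Nfil3 did so under both replicate blocks (-1.69, adjusted p = 0.0347 and 0.0472), and in WT it lost the call without a detection filter (-2.29, adjusted p = 0.0571). Nfil3 on stimulation was called in WT (-1.32) and BAF180-deficient Th2 cells (-1.30) under detection on at least 3 arrays, only the arrays compared and both replicate blocks. Resting Th2 minus resting naïve lost the call with only the arrays compared for Irf4 (1.27) and Nfil3 in WT (1.84) and for Nfil3 in BAF180-deficient mice (1.64, and 1.26 under the Z-score). Without the 2 arrays farthest from the median of Il10, r in resting naïve cells was -0.848 for Irf4 and 0.351 for Nfil3, and in stimulated naïve cells 0.0751 and -0.352.

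Leaving out an array, or all arrays of a letter, gave these lowest and highest log2 differences. Il10 ranged from 1.39 to 1.96 between genotypes in resting Th2, 0.59 to 1.00 in stimulated Th2, -0.46 to 0.81 in resting naïve and 0.25 to 1.35 in stimulated naïve cells. For Il10 the values were 3.48 to 4.37 on stimulation of WT Th2, 2.80 to 3.29 of BAF180-deficient Th2, -0.17 to 0.88 of WT naïve and 0.32 to 1.64 of BAF180-deficient naïve cells. They were 0.14 to 1.15 for resting Th2 minus resting naïve cells in WT and 1.59 to 2.66 in BAF180-deficient mice. Those of Il10 were -1.14 to -0.56 for the genotype difference of the Th2 stimulation, -0.0813 to 1.24 of the naïve stimulation and 0.88 to 2.16 of resting Th2 minus resting naïve cells. The Il10 differences were 3.12 to 4.13 for Th2 minus naïve stimulation in WT and 1.45 to 2.77 in BAF180-deficient cells. Irf4 ranged from 0.11 to 0.67 between genotypes in resting Th2, -0.12 to 0.0730 in stimulated Th2, -0.41 to 0.58 in resting naïve and -0.44 to 0.070 in stimulated naïve cells. For Irf4 the values were 1.87 to 2.32 on stimulation of WT Th2, 1.48 to 2.10 of BAF180-deficient Th2, 2.54 to 3.56 of WT naïve and 2.28 to 3.22 of BAF180-deficient naïve cells. They were 0.64 to 1.69 for resting Th2 minus resting naïve cells in WT and 0.81 to 1.91 in BAF180-deficient mice. Those of Irf4 were -0.67 to -0.13 for the genotype difference of the Th2 stimulation, -0.79 to 0.20 of the naïve stimulation and -0.17 to 0.82 of resting Th2 minus resting naïve cells. The Irf4 differences were -1.33 to -0.30 for Th2 minus naïve stimulation in WT and -1.57 to -0.18 in BAF180-deficient cells. Nfil3 ranged from 0.01 to 0.67 between genotypes in resting Th2, 0.30 to 0.49 in stimulated Th2, -0.10 to 1.27 in resting naïve and -0.15 to 0.28 in stimulated naïve cells. For Nfil3 the values were -1.69 to -1.03 on stimulation of WT Th2, -1.63 to -1.06 of BAF180-deficient Th2, 0.09 to 1.42 of WT naïve and -0.30 to 0.76 of BAF180-deficient naïve cells. They were 1.17 to 2.20 for resting Th2 minus resting naïve cells in WT and 0.94 to 2.00 in BAF180-deficient mice. Those of Nfil3 were -0.27 to 0.39 for the genotype difference of the Th2 stimulation, -1.26 to 0.10 of the naïve stimulation and -0.90 to 0.47 of resting Th2 minus resting naïve cells. The Nfil3 differences were -2.65 to -1.62 for Th2 minus naïve stimulation in WT and -2.05 to -0.99 in BAF180-deficient cells. Calls moved mostly with letter C. The naïve BAF180-deficient Il10 response was also called without its stimulated C array (1.64, adjusted p = 0.0264). Without letter B the Il10 stimulation difference in WT lost its call (3.48, adjusted p = 0.0535), as did Irf4 on stimulation of BAF180-deficient Th2 cells (1.48, adjusted p = 0.105). The Th2 against naïve call of Nfil3 was lost without letter A (1.91 in WT, 1.85 in BAF180-deficient) or B (2.08 and 1.82), and in BAF180-deficient mice without resting Th2 array A or B (1.49 each). Nfil3 in resting naïve cells was called between genotypes without letter C (0.60, adjusted p = 0.219). The Irf4 call in WT was lost without resting Th2 array A (1.12) or C (1.22), resting naïve array C (0.69) or letter A (1.49). The WT stimulation difference of Nfil3 lost its call without resting Th2 array A (-1.99), resting naïve C (-1.62), stimulated naïve C (-2.08), letter A (-2.52) or letter B (-2.64). Nfil3 on stimulation was called without the resting Th2 C array in WT (-1.69) and BAF180-deficient cells (-1.59), and without letter C (-1.62 and -1.63). Without letter C the BAF180-deficient stimulation differences were called (1.86 for Il10, -1.40 for Nfil3), as they were for Il10 without resting naïve C (2.77) or stimulated naïve A (2.55) and for Nfil3 without resting naïve A (-2.05).

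The number of probes called between genotypes in resting Th2 cells was 12, and 23 with the Z-score, 62 with neqc within states, 5 without a filter, 19 with offset 50, 1 with only the arrays compared and 136 with the letter within state as block. In stimulated Th2 cells 13 became 0 with only the arrays compared and 44 with the block. In resting naïve cells 97 became 32 with the Z-score, 7 within states, 1 with only the arrays compared and 592 with the block, and in stimulated naïve cells 16 became 5, 4 with detection on at least 3 arrays, 5 without background correction, 9 without a filter, 0 with only the arrays compared and 32 with the block. For Maf and Prdm1, at background, 1 of 18 differences was called without WT resting naïve array B or C and 0 under the other alternatives.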
